A study of Mus musculus with 230 samples.

Results

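A set of 10 calcium channel genes was followed in mouse sensory neurons after sciatic nerve injury. The genes were chosen by name and are Cacna2d1, Cacna2d2, Cacna2d3, Cacna1a, Cacna1b, Cacna1c, Cacna1h, Cacnb1, Cacnb3 and Cacnb4, 10 of the 26 voltage-gated calcium channel genes and of the 53278 genes in the deposited count table. All 10 passed the filter on low counts and were tested. The neurons came from dorsal root ganglia (DRG), the clusters of sensory nerve cell bodies beside the spinal cord, of C57BL/6 X CAST/Ei mice that carried no further allele or agent in the labels. Neurons were picked by hand from dissociated ganglia of the levels L4 and L5, and the cytoplasm of a cell went into SMART-seq2 RNA libraries. The 18 low-input libraries (made from small inputs of neurons) formed 6 groups of 3: intact and injured at 1 month, at 8 months and at 12 months of age. The 69 single neurons formed 4 groups, 18 intact and 21 injured cells at 1 month and 8 intact and 22 injured cells at 1 year. The labels give neither the time after injury nor the animal behind a library, so p-values measure the spread between these libraries, which may be technical.

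Voltage-gated calcium channels let calcium into a neuron when its membrane depolarises, and in sensory neurons this triggers transmitter release and shapes firing. The pore is an alpha1 subunit, and its type sets the current: P/Q-type for Cacna1a, N-type for Cacna1b, L-type for Cacna1c and T-type for Cacna1h. Intracellular beta subunits (Cacnb genes) and extracellular alpha2delta subunits (Cacna2d genes) help pores reach the membrane and tune their gating. The product of Cacna2d1 is the binding site of gabapentin and pregabalin, drugs used against neuropathic pain, and its rise in sensory neurons after nerve injury is well known.

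Levels are given as CPM, counts brought to the same library total for every library, with the library size scaled by TMM, a method that aligns libraries on the bulk of their genes. The libraries held 7531967 to 19443627 gene counts, of which 770328 to 11587094 lay outside CT010467.1, a single feature that took 29.4% to 93.8% of a library. Intact replicate 2 at 12 months differed from the rest, with the largest such share, the fewest remaining counts and 40.5% of these mitochondrial, against 1.19% to 3.55% in the other 17. Its markers of the NF class of sensory neuron summed to 8176 CPM, the top of the intact range. The summed level of 10 general neuronal markers was 5784 to 9963 CPM without and 6720 to 9799 CPM with injury, with all 10 detected in every group. Of these 10, Tubb3 was called higher and Rbfox3 lower, and 9 log2 changes were negative. Summed markers of satellite glia, the cells that wrap sensory neurons, reached 330 to 2386 CPM without and 357 to 2433 CPM with it. Of the 9, Fbln2 was called higher after injury, and 8 log2 changes were positive. Lists for the NF, NP, PEP and TH classes of sensory neuron, 19 genes of which 18 were tested, had no gene called. Their log2 changes were 1 positive and 5 negative for NF, 0 and 5 for NP, 3 and 1 for PEP, and 2 and 1 for TH. Schwann cell markers summed to 205 to 865 CPM without and 311 to 549.7 CPM with injury, with none called and 4 of 5 log2 changes negative. Immune markers summed to at most 32.5 CPM and endothelial and mural markers to at most 18.1 CPM, with C1qa at 0 in all intact libraries. The 6 injury markers Atf3, Sprr1a, Gal, Npy, Sox11 and Ecel1 summed to 3.19 to 28 CPM without and 519 to 2979 CPM with injury, and all 6 were called higher, in the direction of the labels.

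Cacna2d1 rose after injury at every age, and it was the only 1 of the 10 genes called in the main fit when the injury was averaged over the ages. At 1 month its level was 22.9, 16.99 and 33.1 CPM in the intact libraries and 206.7, 78.1 and 126.0 CPM in the injured ones. At 8 months the intact libraries held 43.6, 56 and 47.2 CPM and the injured libraries 200.6, 131.0 and 154.4 CPM. At 12 months the intact libraries held 13.3, 16.3 and 12.6 CPM and the injured libraries 303.9, 238.6 and 208.0 CPM. Every injured library lay above every intact library of its own age and of the other ages. The lowest injured value, 78.1 CPM at 1 month, was above the highest intact value, 56 CPM at 8 months. Injured libraries lay above all intact ones of their age for 10.5% of genes at 1 month, 9.39% at 8 months and 19.2% at 12 months, and at each of the 3 ages for 1.83%, with Cacna2d1 the only member among these last. The reverse order held for 7.28%, 4.92% and 6.68%, and at each of the ages for 0.12%, none a member.

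Over the 9 libraries of each condition Cacna2d1 averaged 29.1 ± 16.4 CPM (SD) without and 183 ± 67.98 CPM with injury, a ratio of means of 6.29. The counts behind these were 24145 in the injured and 3115 in the intact libraries. In edgeR's quasi-likelihood test the log2 change averaged over ages was 2.80 ± 0.21 (SE), with a Benjamini-Hochberg adjusted p of 4.07e-07, and it was called in all 25 alternative analyses. Without intact replicate 2 at 12 months, the library that differed from the rest, it was 2.83 (adjusted p = 1.75e-06), and 4.28 at 12 months (adjusted p = 0.000187). Of the 14212 genes tested, 878 (6.18%) were called at an adjusted p under 0.05, 726 higher (5.11%) and 152 lower (1.07%); of the 10 members 1 was called, higher, which is near the background. By p-value Cacna2d1 ranked 5 of 14212. By size its log2 change ranked 402 among the 726 genes called higher.

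Within ages the change of Cacna2d1 was called each time. The log2 change was 2.49 ± 0.35 (SE) at 1 month (adjusted p = 0.00332), 1.73 ± 0.34 at 8 months (adjusted p = 0.0233) and 4.19 ± 0.39 at 12 months (adjusted p = 3.42e-05). The ratios of group means were 5.62, 3.31 and 17.8. Of all genes 0.232% were called at 1 month, all of them higher. At 8 months 0.957% were called (0.915% up and 0.0422% down). At 12 months the share was 2.99% (2.19% up and 0.802% down). Each count of members was 1 of 10, higher. At 1 month replicate numbers were taken to pair the libraries, from correlations alone, as no label says what a number shares. With the number as a block, at all 3 ages, the change was 2.43 with an adjusted p of 0.0546. At 1 month the call was also lost without intact replicate 1 (adjusted p = 0.0524). At 8 months it was lost without injured replicate 2 or 3 (0.0598 and 0.0641) and without intact replicate 1, 2 or 3 (0.0696, 0.0574 and 0.0675), with log2 changes of 1.65 to 1.86.

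**Figure D1:**
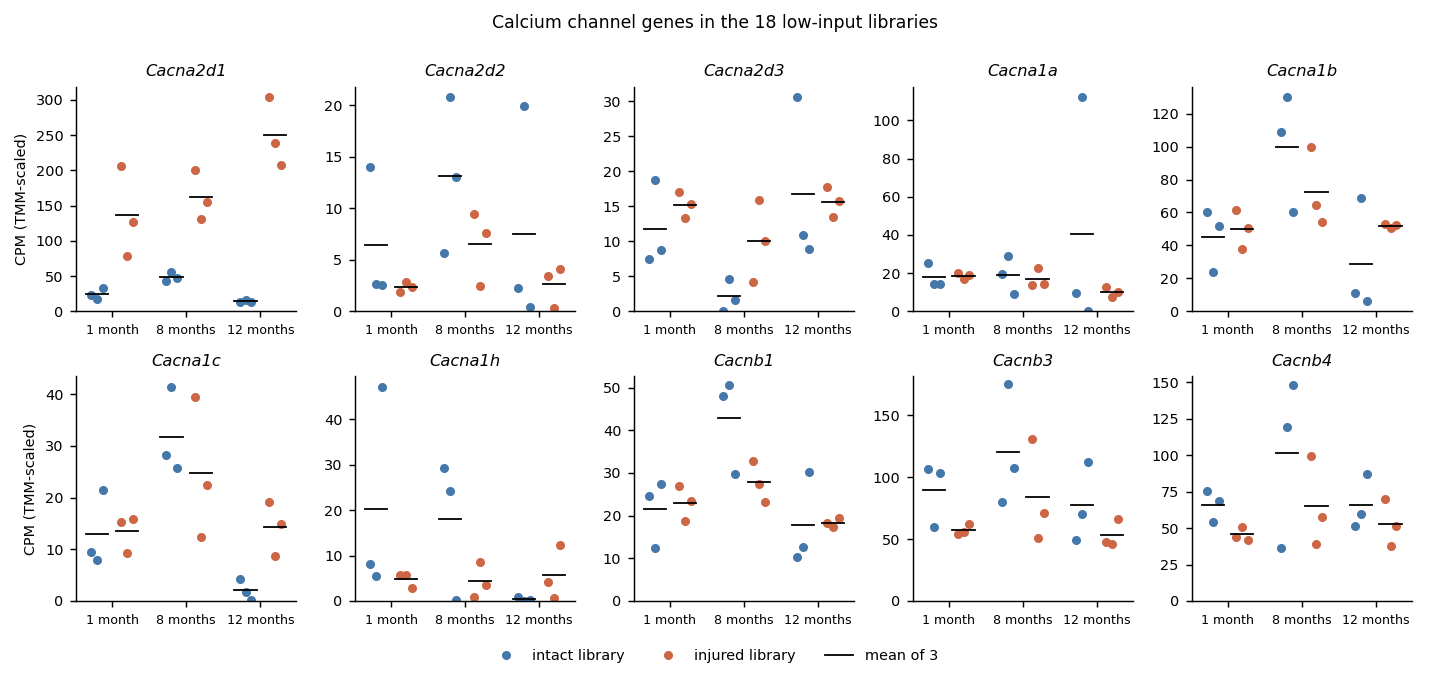
Level of each of the 10 genes in CPM (TMM-scaled, linear axes from 0, each panel with its own range) in the 18 low-input libraries by age; points are libraries, blue for intact and orange for injured, and bars are means of 3. Cacna2d1 is above all intact libraries in all 9 injured ones (lowest injured 78.1 CPM, highest intact 56 CPM), and the other genes overlap between conditions at each age, except Cacnb4 at 1 month and Cacna1c at 12 months.

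The injury effect on Cacna2d1 was 4.19 at 12 months against 1.73 at 8 months, but a difference between ages was not called. The joint test of the injury by age terms gave Cacna2d1 an unadjusted p of 0.000351 and an adjusted p of 0.229. No gene of 14212 was called in that test (0.0%; 1161 at an unadjusted p under 0.05, 208 called by DESeq2 and 6 by limma), with 0.00527 and 0.00985 as adjusted p for Cacna2d1 in DESeq2 and without the filter on low counts. Its level did differ with age among intact libraries (adjusted p = 0.0217), with means of 24.3 ± 8.15 CPM at 1 month, 48.9 ± 6.39 CPM at 8 months and 14.04 ± 1.95 CPM at 12 months (SD, n = 3 each). Of all genes 593 (4.17%) were called for age in intact libraries, among them 2 members, Cacna2d1 and Cacna1c. Without intact replicate 2 at 8 months neither was called (adjusted p = 0.0618 for Cacna2d1 and 0.0526 for Cacna1c). Without intact replicate 2 at 12 months Cacna1b and Cacna2d3 were called as well (adjusted p = 0.00227 and 0.0486). DESeq2 also called Cacna2d3, Cacna1h and Cacnb1 (0.00803, 0.0171 and 0.0407), and limma Cacna1b (0.00873). Over all 24 alternatives Cacna2d3 gained a call in 6, Cacna1b in 5, Cacna1h in 4 and Cacnb1 in 3. Cacna1a, Cacna2d2, Cacnb3 and Cacnb4 gained a call in 1 each. Among injured libraries the means of Cacna2d1 were 137 ± 64.97, 162 ± 35.4 and 250.2 ± 48.95 CPM at 1, 8 and 12 months, and age was not called (adjusted p = 0.999; 31 genes called, 0.218%, none of them a member).

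Satellite glial markers moved with injury at 1 month, where they summed to 594 to 862 CPM without and 1536 to 2433 CPM with injury. At 8 months they summed to 330 to 607 CPM without and 501 to 1013 CPM with injury. At 12 months the injured libraries held 357 to 657 CPM and the intact ones 401, 492 and 2386 CPM, the last being the library that differed from the rest. Their part in the result was not tested. With the share of CT010467.1 as a covariate the averaged change of Cacna2d1 was 3.18 (adjusted p = 0.00338). In libraries made from several cells, fewer cells of a type and less RNA per cell cannot be told apart.

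Cacna2d1 lies on chromosome 5 at 15934691 to 16374511 on the plus strand of GRCm38 (all gene coordinates are those of the deposited table), with 12416 bp of summed exon. The bases before its start are shown with those of Cacna2d3, a gene of the same family that was not called, because the study pairs RNA with DNA methylation and methylation acts on CpG. They are RefSeq sequences on GRCm38.p6, 5′ to 3′ on the gene's strand and 250 bases long, with CpG in capitals.
Cacna2d1, chr5:15934441-15934690, plus strand: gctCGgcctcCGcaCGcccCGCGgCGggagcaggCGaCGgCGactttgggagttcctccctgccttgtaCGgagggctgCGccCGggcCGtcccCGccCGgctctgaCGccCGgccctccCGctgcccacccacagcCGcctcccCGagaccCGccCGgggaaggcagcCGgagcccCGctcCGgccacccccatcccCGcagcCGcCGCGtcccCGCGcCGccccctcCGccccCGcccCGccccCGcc
Cacna2d3, chr14:29721865-29722114, minus strand: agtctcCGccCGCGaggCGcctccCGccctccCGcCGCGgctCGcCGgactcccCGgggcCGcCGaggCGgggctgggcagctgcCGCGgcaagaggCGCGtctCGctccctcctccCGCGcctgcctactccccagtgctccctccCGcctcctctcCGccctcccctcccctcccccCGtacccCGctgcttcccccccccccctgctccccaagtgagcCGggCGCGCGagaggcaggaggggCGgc
The Cacna2d1 stretch holds 36 CpG and the Cacna2d3 stretch 30. Both look alike in this respect: with the first 50 transcribed bases added, the 300-base windows hold 42 CpG for Cacna2d1, 43 for Cacna2d2 and 41 for Cacna2d3, against a median of 7 over 32851 RefSeq windows. The table held windows for 8 of the 10 members. Searched on both strands, TGACGTCA and TGANTCA, the letters bound by CREB and AP-1 factors, were in none of the 14 windows of these 8 genes, against 1.79% and 7.81% of all windows. GGGCGG, the core of a GC box, was found 7 times in the Cacna2d1 window, 6 times in that of Cacna2d3 and 1 time in that of Cacna2d2. It was also found 6 times in a window of Cacna1c and in a window of Cacnb4. At least 1 copy is in 35.7% of all windows. Methylation values were not analysed here.

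The other alpha2delta genes showed no called change. Cacna2d2 (chromosome 9, 107399612 to 107529343), whose product also binds gabapentin, held 14.02, 2.67 and 2.60 CPM in the intact libraries and 1.88, 2.82 and 2.39 CPM in the injured ones at 1 month. At 8 months it held 5.67, 20.8 and 13.1 CPM in the intact libraries and 9.44, 2.50 and 7.58 CPM in the injured ones, and at 12 months 2.23, 19.9 and 0.435 CPM against 3.45, 0.293 and 4.08 CPM. The conditions overlapped at all ages. Its averaged log2 change was -1.13 ± 0.61 (SE), with an adjusted p of 0.320.

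Cacna2d3 (chromosome 14, 28904943 to 29721864) encodes a further alpha2delta subunit with a role in pain sensing. Its levels were 7.50, 18.8 and 8.82 CPM in the intact libraries and 17.1, 13.3 and 15.4 CPM in the injured ones at 1 month. At 8 months they were 0.103, 4.65 and 1.64 CPM in the intact libraries and 4.16, 15.9 and 10.1 CPM in the injured ones. At 12 months they were 30.6, 10.8 and 8.91 CPM against 17.7, 13.5 and 15.7 CPM. Only the intact libraries at 8 months were low, and even there the lowest injured library lay below the highest intact one. The log2 change was 0.82 ± 0.41 averaged over ages (adjusted p = 0.280) and 2.25 ± 0.76 at 8 months (adjusted p = 0.192), which was called without the filter (0.00165).

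Because 1 gene of the family rose, its make-up changed. Per length of exon (CPM per kilobase, RPKM), Cacna2d1 made up 49.8% ± 20.6 (SD, n = 9) of the summed alpha2delta level in intact libraries and 86.2% ± 4.82 (n = 9) in injured ones. The share was 41.3%, 35.5% and 66.4% in the intact libraries at 1 month and 88.4%, 76.96% and 82.8% in the injured ones. At 8 months it was 82.9%, 58.9% and 67.5% against 90.02%, 82.4% and 85.1%, with 1 intact library inside the injured range. At 12 months it was 21.9%, 25.9% and 48.01% against 90.7%, 91.9% and 87.7%. Intact libraries thus differed in which alpha2delta gene led, Cacna2d3 reaching 71.8% and Cacna2d2 49.5% in single libraries, whereas Cacna2d1 led in all 9 injured libraries. The 49.5% was in intact replicate 2 at 12 months, the library that differed from the rest, from 11 counts of Cacna2d2 and 9 of Cacna2d1. In intact replicate 3 at 12 months Cacna2d3 led Cacna2d1 by 48.32% to 48.01%, from 41 and 58 counts. Summed over the family the level was 4.66 ± 1.495 RPKM without and 16.8 ± 5.56 RPKM with injury. Shares do not depend on how libraries are scaled. They were not tested, since Cacna2d1 itself sets them.

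**Figure D2:**
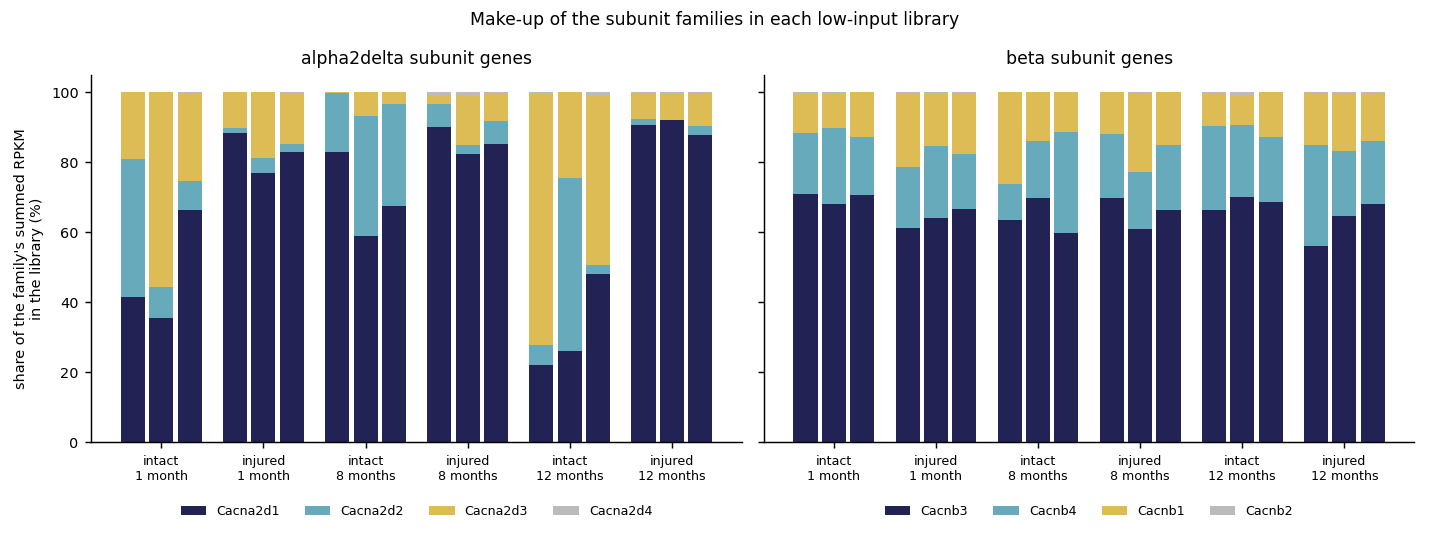
Share (%) of each gene in the summed RPKM of the alpha2delta genes (left) and of the beta subunit genes (right); each bar is 1 low-input library, 3 for each condition and age. Cacna2d1 takes 76.96% to 91.9% of the alpha2delta level in injured and 21.9% to 82.9% in intact libraries, while Cacnb3 takes 55.9% to 70.9% of the beta level in all 18.

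The beta subunit genes were the most abundant members per length in intact libraries, and none was called. Cacnb3 (chromosome 15, 98632220 to 98644530) led the family in all 18 libraries, with 67.5% ± 3.72 of the summed beta level in intact and 64.1% ± 4.22 in injured libraries (SD, n = 9 each). Its levels at 1 month were 106.6, 59.6 and 103.5 CPM in the intact libraries and 54.3, 55.4 and 61.9 CPM in the injured ones. At 8 months they were 79.8, 175.0 and 107.1 CPM against 131.2, 50.7 and 70.9 CPM, and at 12 months 49.6, 70.4 and 111.9 CPM against 47.3, 45.9 and 66.5 CPM. The conditions overlapped at each age. The averaged log2 change was -0.57 ± 0.23 (SE), with an unadjusted p of 0.0216 and an adjusted p of 0.153.

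Cacnb4 (chromosome 2, 52428320 to 52676831) averaged 77.8 ± 35.7 CPM (SD, n = 9) without and 54.6 ± 19.6 CPM (n = 9) with injury, and its log2 change was -0.50 ± 0.25 (SE, adjusted p = 0.274). At 1 month its intact libraries held 75.3, 54.4 and 68.7 CPM and its injured ones 44.1, 51.02 and 41.7 CPM. These did not overlap, as was so for 7.28% of genes in that direction, and they did overlap at 8 and 12 months. Cacnb1 (chromosome 11, 98001508 to 98023034) ranged from 10.3 to 50.6 CPM in intact libraries (median 27.5) and from 17.3 to 32.7 CPM in injured ones (median 23.2). Its log2 change was -0.17 ± 0.22 (adjusted p = 0.728). The signs of the Cacnb changes depend on the scaling: relative to ERCC spike-ins the log2 changes of Cacnb1, Cacnb3 and Cacnb4 were 2.79, 2.23 and 2.27, where the median of all genes was 2.90.

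Among the pore genes none was called for the injury averaged over ages. Cacna1b (chromosome 2, 24603887 to 24763152), the N-type pore that carries much of the presynaptic calcium current of nociceptors, was the most abundant. It ranged from 6.30 to 130.1 CPM in intact libraries (median 60.4) and from 38.01 to 99.6 CPM in injured ones (median 53.2). Its log2 change was 0.26 ± 0.35 (adjusted p = 0.735), but without intact replicate 2 at 12 months it was 0.76 and called (adjusted p = 0.0388). Cacna1a (chromosome 8, 84388440 to 84640246), the P/Q-type pore, ranged from 0 to 112.0 CPM in intact libraries (median 14.5) and from 7.73 to 22.5 CPM in injured ones (median 14.1), with a log2 change of -0.64 ± 0.59 (adjusted p = 0.592). Both ends of its intact range were libraries at 12 months: replicate 2, the library that stood apart, held 112.0 CPM from 62 counts, and replicate 3 held no count. Without replicate 2 the log2 change of Cacna1a was 0.27.

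Cacna1c (chromosome 6, 118587240 to 119196418), the L-type pore, was low in the intact libraries at 12 months. These held 4.19, 1.81 and 0.217 CPM, from 49, 1 and 1 counts, against 19.2, 8.79 and 14.9 CPM in the injured libraries of that age. The groups did not overlap, as in 19.2% of genes in that direction, and the log2 change of 2.59 ± 0.69 (SE) had an adjusted p of 0.0502. At 1 month the intact libraries held 9.52, 7.90 and 21.5 CPM and the injured ones 15.4, 9.23 and 15.8 CPM (log2 change 0.05 ± 0.58, adjusted p = 1.0). At 8 months they held 28.3, 41.4 and 25.7 CPM and 39.5, 12.4 and 22.4 CPM (-0.36 ± 0.58, adjusted p = 0.893). Averaged over ages the change was 0.76 ± 0.35 (adjusted p = 0.232). Without intact replicate 1 at 12 months it was 1.57 averaged over ages (adjusted p = 0.0296) and 5.03 at 12 months (adjusted p = 0.0117). At 12 months Cacna1c was also called in DESeq2 (adjusted p = 0.00408), without the filter (0.000129), with ERCC scaling (0.000271) and without injured or intact replicate 1 at 8 months (0.046 each). Age among intact libraries was called for Cacna1c (adjusted p = 0.0192).

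Cacna1h (chromosome 17, 25374285 to 25433783) encodes the T-type pore that opens at small depolarisations and is known from low-threshold mechanoreceptors. Its replicates lay far apart. The intact libraries held 8.17, 5.61 and 47.1 CPM at 1 month, 29.4, 24.3 and 0.246 CPM at 8 months and 0.942, 0 and 0.217 CPM at 12 months. The injured libraries held 5.81, 5.64 and 2.83 CPM, 0.925, 8.54 and 3.41 CPM, and 4.27, 0.644 and 12.3 CPM. The log2 changes of -2.09 ± 1.21 at 1 month, -2.05 ± 1.22 at 8 months and 3.20 ± 1.56 at 12 months were not called (adjusted p = 1.0, 0.563 and 0.288), nor was the averaged change of -0.31 ± 0.77 (adjusted p = 0.875). Without the filter on low counts Cacna1h was called at each age (adjusted p = 0.0193, 0.0143 and 0.000467) and for injury by age (2.97e-07). With ERCC scaling it was called at 12 months (0.000118) and for injury by age (0.0183).

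**Figure D3:**
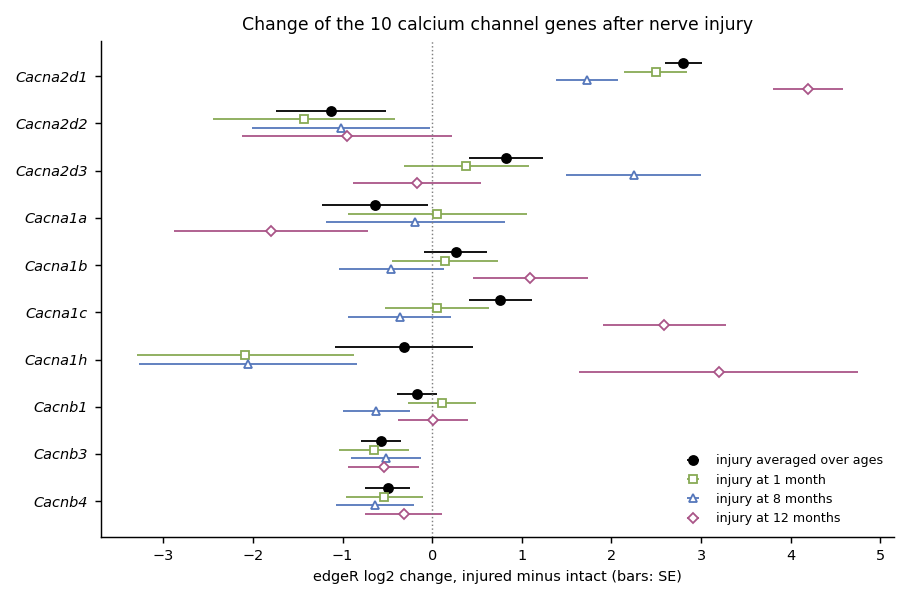
edgeR log2 change (injured minus intact, horizontal axis) of each gene, averaged over ages (filled circles) and at 1, 8 and 12 months (open squares, triangles and diamonds); bars are standard errors from the fit of 18 libraries. The changes of Cacna2d1 lie between 1.73 and 4.19; the averaged changes of the other 9 genes lie between -1.13 and 0.82.

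Over the 10 genes 4 averaged changes were positive and 6 negative, with a median of -0.24 against 0.03 over all genes tested. Under ERCC scaling all 10 were positive and called (adjusted p of 1.27e-08 to 0.00959), where 13493 of 14212 genes were called. The median of all genes was also positive, at 2.90, and Cacna2d1 was then 2.75 above that median. The order of levels per length also shifted. In intact libraries Cacnb3 led with 30.8 ± 12.0 RPKM (SD, n = 9), ahead of Cacnb4 with 8.68 ± 3.99, Cacnb1 with 6.03 ± 3.24, Cacna1b with 5.83 ± 4.205 and Cacna2d1 with 2.34 ± 1.32. Below them came Cacna1a with 2.27 ± 2.93, Cacna1h with 1.32 ± 1.73, Cacna2d3 with 1.17 ± 1.08, Cacna2d2 with 1.14 ± 1.00 and Cacna1c with 0.737 ± 0.671. Each neighbour after Cacnb3 was within 1 SD of the next, where 1 SD here and below is the larger SD of the pair. In injured libraries Cacna2d1 was second, at 14.7 ± 5.48 RPKM, below Cacnb3 at 20.8 ± 8.41 by less than 1 SD and above Cacnb4 at 6.09 ± 2.18 by more. Cacna1b at 5.86 ± 1.73 and Cacnb1 at 5.09 ± 1.15 followed, and the other 5 members, at 0.481 to 1.57 RPKM, lay below Cacnb1 by more than 1 SD.

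Of the 16 other voltage-gated calcium channel genes, 9 passed the filter and 1 was called. Cacng2, which encodes stargazin, a membrane protein best known for carrying AMPA receptors, averaged 19.6 ± 28.5 CPM (SD, n = 9) without and 5.24 ± 1.62 CPM (n = 9) with injury. Its log2 change of -1.55 ± 0.44 (SE) had an adjusted p of 0.0429, but 93.9 CPM came from intact replicate 2 at 12 months. Without that library the change was -0.88 and not called (adjusted p = 0.0627). The call was lost on omission of any 1 of 12 libraries (adjusted p of 0.0543 to 0.0916), with the replicate block (0.182) and in limma (0.0605). The change was positive under ERCC scaling (1.54) and with the share of CT010467.1 as a covariate (0.43). The filter removed Cacna1f, Cacna1g, Cacna1i, Cacna1s, Cacng1, Cacng4 and Cacng6, of which Cacng1 had no count in any library. The other 8 tested, Cacna1d, Cacna1e, Cacna2d4, Cacnb2, Cacng3, Cacng5, Cacng7 and Cacng8, had log2 changes of -0.04 to 3.65 and none was called. Cacna2d4, the remaining alpha2delta gene, averaged 0.0655 ± 0.105 CPM without and 0.534 ± 0.448 CPM with injury (SD, n = 9 each; adjusted p = 0.0737).

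Of 31 regulators and binding partners of the channels, 24 were tested and 1 was called. Rims1, an active-zone scaffold that ties channels to vesicles, fell by 0.99 on the log2 scale (SE 0.24, adjusted p = 0.0203), from 22.8 ± 15.8 CPM to 10.6 ± 3.15 CPM (SD, n = 9 each), and rose under ERCC scaling (2.14, adjusted p = 0.00647). With the replicate block it was not called (adjusted p = 0.0969), nor without injured replicate 2 at 12 months (0.0543). In all, Rims1 lost its call in 3 of the 25 alternatives, apart from the turned sign under ERCC scaling. Of 27 genes for calcium stores, pumps and exchangers, 24 were tested and 3 were called, all higher. Itpr1, a receptor that releases calcium from the endoplasmic reticulum, averaged 0.826 ± 0.899 CPM without and 20.8 ± 12.3 CPM with injury (SD, n = 9 each), and its log2 change was 4.59 ± 0.74 (SE, adjusted p = 0.00137). It was 0.24 with the share of CT010467.1 as a covariate (adjusted p = 0.988), and 4.67 and not called in limma (0.124). Its relative Itpr2 averaged 0.229 ± 0.593 CPM against 0.985 ± 1.04 CPM (log2 change 3.55 ± 1.00, adjusted p = 0.0419). Stim2, a sensor of store calcium, averaged 6.15 ± 1.27 CPM against 10.5 ± 3.17 CPM (log2 change 0.76 ± 0.21, adjusted p = 0.0398). Against 6.18% of all genes called, the counts of 1 of 9, 1 of 24 and 3 of 24 are given as counts only. The call of Itpr2 was lost without any 1 of 14 libraries and that of Stim2 without any 1 of 11. Their log2 changes were 2.98 to 4.77 and 0.65 to 0.85 over all 18 omissions. Over all 25 alternatives the call was lost in 16 for Itpr2 and in 15 for Stim2. Their adjusted p reached 0.380 and 0.784, and their lowest log2 changes were 2.98 and 0.37. Among these alternatives, the replicate block lost both calls (adjusted p = 0.187 and 0.177). That block pairs by number at all 3 ages, though the numbers were taken to pair at 1 month only.

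The 5 genes whose log2 CPM followed Cacna2d1 most closely over the 18 libraries were Tgfa, Igfn1, Slc6a4, Smad1 and Slfn10-ps, with Pearson r of 0.932, 0.927, 0.915, 0.912 and 0.912. The injured and intact libraries form separate clusters, so these values mostly restate the difference between conditions. Within the 9 injured libraries r was 0.461 for Tgfa, 0.937 for Igfn1, 0.572 for Slc6a4, 0.862 for Smad1 and 0.757 for Slfn10-ps. Within the 9 intact libraries it was 0.857 for Tgfa and 0.589 for Smad1. For Slc6a4 it was 0.410, at an intact mean of 0.0365 CPM that lies near the floor. Tgfa, a growth factor of the EGF family, averaged 0.721 CPM without and 6.83 CPM with injury. Smad1, a transcription factor of BMP signalling, averaged 9.75 and 25.1 CPM in the same order. Slc6a4, the serotonin transporter, averaged 0.0365 and 11.985 CPM. Igfn1 and Slfn10-ps were listed at 0 in all intact libraries, and Slfn10-ps is a pseudogene whose reads may belong to a close copy. Among the members, Cacna1c and Cacna1b came nearest to Cacna2d1, at r = 0.581 and 0.502 over 18 libraries, 0.875 and 0.815 within the 9 intact ones, and 0.329 and 0.394 within the 9 injured ones.

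Single neurons showed Cacna2d1 in most cells of every group. Here CPM is counted outside CT010467.1, and as no animal is named each group is 1 sample: intervals cover counting error only and no test between groups was made. A cell held 0 to 22890735 counts outside that feature, with medians of 291820 in intact and 1033600 in injured cells at 1 month and of 7145000 and 3524100 at 1 year, and 1 injured cell at 1 year held none. In 3 intact and 3 injured cells at 1 month, and in 1 intact and 4 injured cells at 1 year, over 20% of these counts were mitochondrial. At 1 month 14 of 18 intact cells (77.8%, exact 95% interval 52.4 to 93.6) and 17 of 21 injured cells (80.95%, 58.1 to 94.6) had a count of Cacna2d1. At 1 year all 8 intact cells (63.1 to 100%) and 20 of 22 injured cells (90.9%, 70.8 to 98.9) had one. Thinned to 100000 counts per cell, with shallower cells left out (6 of 18, 4 of 21, 0 of 8 and 4 of 22), the shares were 66.7%, 88.2%, 100% and 88.9% in the same order.

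The level of Cacna2d1 per cell spread widely in all groups. Intact cells at 1 month ran from 0 to 710.04 CPM with a median of 50.7, and injured cells from 0 to 892.0 CPM with a median of 138. Intact cells at 1 year ran from 6.997 to 519 CPM with a median of 295, and injured cells from 0 to 1729 CPM with a median of 191. The pooled level was 261 CPM (exact 95% Poisson interval 256 to 267) in intact and 335 CPM (330 to 340) in injured cells at 1 month, a ratio of 1.28. At 1 year it was 211 CPM (208 to 215) and 277 CPM (273 to 280), a ratio of 1.31. Without the cells of high mitochondrial share the ratios were 1.27 at 1 month and 1.06 at 1 year. The medians ordered the groups otherwise at 1 year, and 3 cells held 89.6% of the pooled Cacna2d1 counts of the intact cells at 1 month. A 2-fold higher pooled level in injured cells, seen in 5.98% of 9463 genes at 1 month and 7.32% of 9955 at 1 year, was reached by no member. The ratios of 1.28 and 1.31 stand beside 5.62 and 17.8 in the low-input libraries at 1 and 12 months. Whether the kinds of library differ was not tested. Among the cells, the injury marker Atf3 pooled to 805 CPM with injury and 72.4 CPM without it at 1 month. At 1 year these were 80.6 and 62.5 CPM, and the medians ran the other way (29.6 and 51.6 CPM). Pooled Sprr1a was 1853 CPM with and 0.908 CPM without injury at 1 month, and 5.40 and 0.178 CPM at 1 year. After thinning, Sprr1a had a count in 9 of 17 and 2 of 18 injured cells at these ages. How far injured cells at 1 year had responded to injury was not tested.

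**Figure D4:**
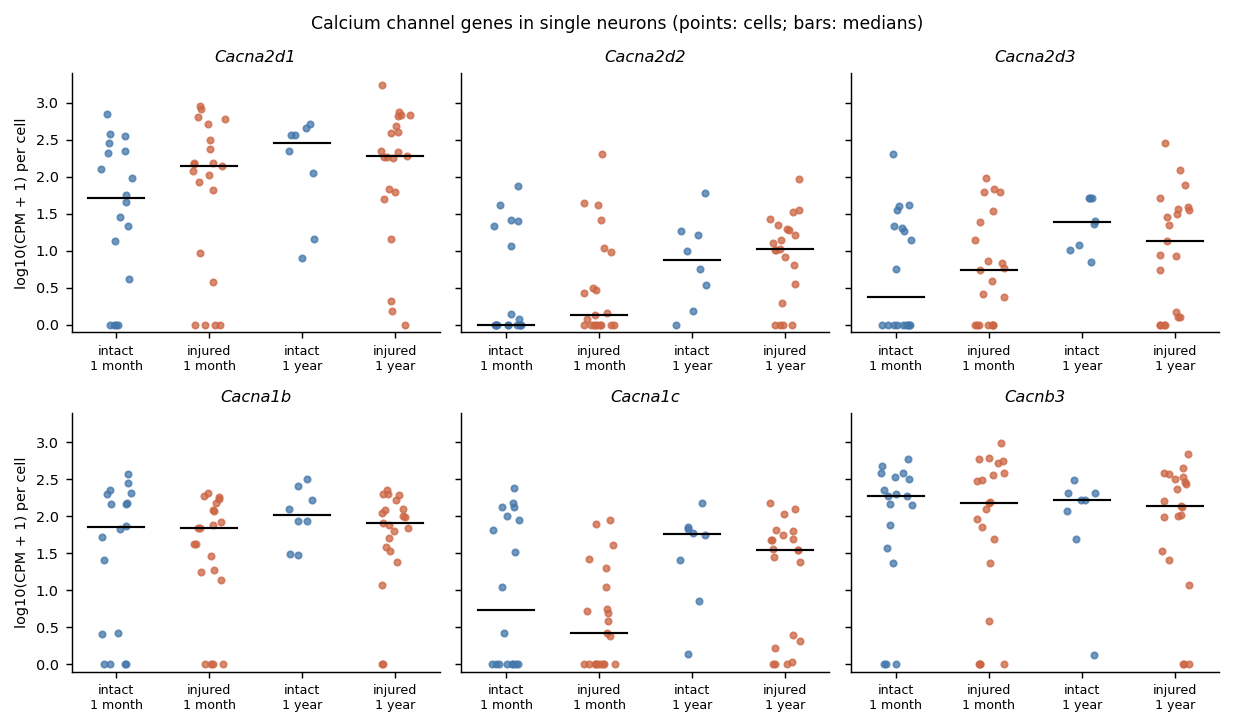
log10(CPM + 1) per neuron for 6 of the genes, with CPM counted outside CT010467.1; points are cells (18 intact and 21 injured at 1 month, 8 intact and 21 injured with counts at 1 year) and bars are medians. The lowest cell of a group is at 0 to 6.997 CPM for Cacna2d1 and the highest at 519 to 1729 CPM; its median is 50.7 and 138 CPM in intact and injured cells at 1 month and 295 and 191 CPM at 1 year.

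Of the other members, Cacna2d2, Cacna1a and Cacna1c had pooled levels at least 2-fold lower in injured cells at 1 month, against 10.7% of genes with such a fold. Cacna2d2 had 29.2 CPM without and 10.6 CPM with injury, Cacna1a at 43.1 and 15.6 CPM, and Cacna1c at 83.3 and 29.1 CPM. A single cell held 68.9% of the intact Cacna1a counts and 52.2% of the intact Cacna2d2 counts, and the medians of Cacna2d2 were 0 and 0.350 CPM. At 1 year the only such member was Cacna1h, at 66.7 CPM without and 30.01 CPM with injury, against 5.61% of genes. Without the cells of high mitochondrial share the ratio of intact to injured cells for Cacna1h rose from 2.22 to 3.52. Cacna1h had a count in 4 of 18 and 5 of 21 cells at 1 month and in 8 of 8 and 12 of 22 at 1 year. Pooled levels of Cacnb3 were 236 and 257 CPM in intact and injured cells at 1 month and 148 and 187 CPM at 1 year, those of Cacnb4 142 and 162 CPM and 110.2 and 164 CPM, and those of Cacna1b 187 and 109 CPM and 129 and 120 CPM. Cacnb1 was at 57.5 and 63.8 CPM in injured and intact cells at 1 month and at 50.3 and 59.1 CPM at 1 year. Cacna2d3 was at 29.7 and 16.7 CPM at 1 month and at 35.1 and 29.5 CPM at 1 year.

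Cells held many members together. The median number of members with a count was 8, 8, 10 and 9 of 10 in intact and injured cells at 1 month and at 1 year. Counts of Cacna2d1, Cacna2d2 and Cacna2d3 occurred together in 5 of 18, 9 of 21, 7 of 8 and 15 of 22 cells, in the same order. Cacna2d2 or Cacna2d3 without Cacna2d1 was seen in 2 cells, both injured at 1 month. Per length, Cacna2d1 was the leading alpha2delta gene in 9 of 14 cells with any such count among intact and 15 of 19 among injured cells at 1 month, and in 6 of 8 and 17 of 20 at 1 year. Its share of the pooled alpha2delta level was 79.02% and 85.02% at 1 month and 76.4% and 78.5% at 1 year. Cacnb3 led the beta genes in 13 of 15, 16 of 18, 6 of 8 and 17 of 20 cells, and Cacna1b led the pore genes in 12 of 15, 15 of 17, 6 of 8 and 16 of 19.

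In cells with at least 100000 counts, Cacna2d1 was compared with the other members, Sprr1a and Atf3 within each group. Among 12 intact cells at 1 month its Spearman correlation was 0.965 with Cacnb3, 0.846 with Cacna1b and 0.814 with Cacna1c, and 0.939, 0.733 and 0.767 without 2 cells of high mitochondrial share. Among 17 injured cells at 1 month these were -0.04, 0.473 and 0.0869, and the highest for a member was 0.620, with Cacna1a. That with Atf3, the transcription factor induced by axon damage, was 0.855 (0.847 without 1 cell of high mitochondrial share). In the 12 intact cells at 1 month it was 0.361 with Atf3, and -0.103 without the 2 cells of high mitochondrial share. Among 8 intact cells at 1 year it was 0.0476 with Atf3 (-0.0357 without 1 cell of high mitochondrial share) and highest with Cacna1h, at 0.786. Among 18 injured cells at 1 year the correlation with Atf3 was 0.146 and with Sprr1a 0.515. The cells differ widely in depth, and these values are descriptions without a test.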

How the data were processed

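RNA was measured in 136 of the series' 230 samples; the 94 methylation samples were not analysed here. The deposited table holds whole-number counts per gene for 87 columns, 18 low-input libraries and 69 cells. Per the file headers the authors counted uniquely mapped read pairs over exons with featureCounts 1.5.2 and GENCODE vM16 without strand, so overlapping and antisense genes cannot be separated. Exon length, another column of the deposited table, gave RPKM. The submitters' processing notes name Trim Galore, STAR and mm10. The 92 ERCC spike-ins were kept out of library sizes, and no row lacked a gene name.

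The 18 low-input libraries were fitted together as 6 groups in R 4.3.3 with edgeR 4.0.16 (TMM, filterByExpr, robust quasi-likelihood test), leaving 14212 genes, 12 residual degrees of freedom and a common biological coefficient of variation of 0.543. Adjusted p-values (Benjamini-Hochberg) cover all genes tested, and a call is an adjusted p under 0.05. The injury was averaged over the 3 ages, tested within each age and tested for differences between ages. DESeq2 1.42.0 and limma 3.58.1 (voom with quality weights), another scaling, no filter, a replicate block, a covariate and omission of each library were alternatives. The scripts were tested on simulated data. Same-numbered libraries of an age deviated together at 1 month (r = 0.188, 0.309 and 0.478 over 1669 genes), so the numbers were taken to pair there, on these correlations alone. Injured replicate 2 and intact replicate 1 of that age, of unlike number, gave 0.155. At 8 and 12 months the numbers were not taken to pair (-0.53 to 0.0881), and injured 2 with intact 1 at 8 months gave 0.631. The replicate block nonetheless covered all 3 ages.

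Cells were summed within their group, with exact Poisson and Clopper-Pearson 95% intervals that cover counting error only, and genes at 10 CPM or more in either group were compared. Reads carry no molecular identifiers, and each cell is its own library. Named beyond the members are all other channel genes, the called genes of 2 calcium lists, and the 5 genes most correlated with Cacna2d1. The members and lists were chosen with earlier results of these data known, the rise of Cacna2d1 among them.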

Additional observations from a re-analysis of the deposited data

Results flagged for a closer look

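Among the 8 intact cells at 1 year, 1 cell held 0.3196 CPM of Cacnb3, from 2 counts, and stood far below the others, whose group median was 163 CPM. The low level was not particular to Cacnb3. This cell was also the group's lowest for the neuronal marker Tubb3, at 78.8 CPM against a group median of 3986 CPM. It was the lowest for Cacna2d2, Cacna1a, Cacnb1 and Cacnb4 as well, but not for Cacna2d1, Cacna2d3, Cacna1b, Cacna1c or Cacna1h. In this cell 43.3% of the counts outside CT010467.1 were mitochondrial, against 0.0828% to 6.26% in the other 7. Chance puts about 1 in 20 groups past the limit used, and all 10 genes were looked at in this group.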

How the results depend on the processing

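The averaged rise of Cacna2d1 kept its call in all 25 alternatives, with log2 changes of 2.74 to 5.65 (2.66 to 2.90 with 1 library omitted). In the order ERCC scaling, no filter, replicate block, covariate (the share of CT010467.1) and DESeq2, the genes called were 13493, 1722, 329, 11 and 1548 averaged over ages; 50, 276, 5, 15 and 123 at 1 month; 631, 661, 29, 5 and 533 at 8 months; 13675, 937, 58, 0 and 1238 at 12 months; and 60, 385, 1, 1 and 208 for injury by age. ERCC scaling, no filter and DESeq2 gave 12158, 1951 and 1972 for age in intact libraries, and 8, 319 and 132 in injured ones, where the covariate gave 20 and limma 1258. limma called 90 at 1 month, 3 at 8 months and 6 for injury by age, where size factors gave 1. Fits of only the 6 libraries compared called 50, 4 and 52 at 1, 8 and 12 months. With 1 library omitted the counts were 561 to 1462 (averaged), 6 to 47, 27 to 236 and 74 to 1036 (1, 8 and 12 months), 0 to 20 (injury by age), 254 to 1697 (age, intact) and 14 to 42 (age, injured). ERCC scaling moved the median of all genes by 2.86, and 13492 of its 13493 averaged calls were higher, against 726 of 878.

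Cacna2d1 at 1 month was not called with ERCC scaling (4.03), the replicate block (2.43) or only 6 libraries (2.49), and at 8 months with ERCC scaling (3.41), the block (1.71), the covariate (2.02), limma (1.57) or only 6 libraries (1.73). At 12 months it was not called with the covariate (4.91). With 1 library omitted it was 2.07 to 2.78, 1.55 to 1.86 and 4.03 to 4.31. Its adjusted p for injury by age was 0.00985 without the filter, 0.00527 in DESeq2 and 0.107 to 0.615 with 1 library omitted. For age in intact libraries it was 0.101 in limma and 0.0122 to 0.0618 with 1 library omitted, and in injured ones 0.596 to 1.0. In cells at 1 year the pooled log2 ratio was 0.32 with CT010467.1 in the total, against 0.39.

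Averaged signs turned with ERCC scaling for Cacna2d2 (2.21), Cacna1a (2.76), Cacna1h (2.67), Cacnb1 (2.79), Cacnb3 (2.23), Cacnb4 (2.27), Cacng2 (1.54) and Rims1 (2.14), and with the covariate for Cacna2d2 (0.62), Cacna2d3 (-0.62), Cacna1a (1.53), Cacnb1 (0.46), Cacnb3 (0.24), Cacnb4 (0.07) and Cacng2 (0.43). The block and limma turned Cacna1a (0.06 and 0.50) and Cacna1h (0.27 and 0.27). Omitting an intact library turned Cacna1a (12 months, 2: 0.27; range over omissions -0.86 to 0.27), Cacna1h (12 months, 1: 0.24; 1 month, 3: 0.22; -0.71 to 0.24) and Cacnb1 (12 months, 3: 0.07; -0.28 to 0.07). At 1 month Cacna1c turned without injured 1 (-0.05), injured 3 (-0.08), intact 1 (-0.12) or intact 2 (-0.21; range -0.21 to 0.63), and at 8 months with ERCC scaling (0.99). At 12 months Cacna2d3 turned with ERCC scaling (4.70), the block (0.09) or without intact 1 (0.71; range -0.51 to 0.71), and Cacna1h with the covariate (-3.10). The causes were not tested. No paired fit of the age comparisons was run, since the block lies within age. Cells of high mitochondrial share were also left out, a choice made after seeing the data. This turned the pooled log2 ratios at 1 year of Cacna2d2 (-0.23), Cacna2d3 (-0.367) and Cacna1b (0.0845). It also turned the correlations of Cacna2d1 with Cacna1c (-0.0296) and Cacna1h (-0.0215) in injured cells at 1 month. In intact cells that with Atf3 turned at 1 month (-0.103) and at 1 year (-0.0357). In injured cells at 1 year those with Cacna2d2 (0.385), Cacna2d3 (-0.211) and Cacnb3 (0.033) turned. Of 1321 values of single genes and cells under the other alternatives, the turned signs included, 1157 kept direction and side of the threshold. Of the rest, 51 lost a call, 41 gained one, 32 turned sign and 40 moved in size. In the intact libraries at 12 months Cacna1h rests on 12 counts, Cacna2d2 on 39 and Cacna1c on 51.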
